A study of Mus musculus with 12 samples.

Results

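The genes described here encode subunits of the SWI/SNF chromatin remodelers BAF and PBAF that exist as paralogs or that mark one form of the complex. They are the ATPases Smarca4 (BRG1) and Smarca2 (BRM), the scaffold proteins Smarcc1 (BAF155) and Smarcc2 (BAF170), the BAF subunits Arid1a and Arid1b, and the PBAF subunits Arid2, Pbrm1, Brd7 and Phf10. They were chosen by gene symbol and not by a rule on their values, though with earlier results of these data known. They are 10 of the 24495 genes in the read count table. All 10 passed the filter on low counts that left 15532 genes for testing. The libraries are poly(A) RNA-seq of CCE-Nanog-GFP mouse embryonic stem cells (mESCs), which carry a green fluorescent reporter of Nanog and were sorted for GFP+ cells before experiments. One line carried a control shRNA (shSC, labelled scr with the genotype WT) and the other an shRNA against the protease cathepsin L (shCTSL, labelled KD). Both lines were made with lentivirus and puromycin selection, so the controls carry a vector and the drug selection too, and each is a single line. Each line was sampled as mESCs before differentiation (Day 0) and as embryoid bodies (EBs) kept for 2 or 4 days without LIF and with all-trans retinoic acid (Day 2, Day 4), with 2 libraries in each of the 6 groups. The study describes the libraries of a group as biological replicates, while the labels number them without naming separate cultures. The p-values measure the spread between these libraries.

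SWI/SNF complexes use the energy of ATP to slide and evict nucleosomes. A complex holds one ATPase, SMARCA4 or SMARCA2, on a core built around SMARCC1 and SMARCC2, and other subunits set its form. ARID1A or ARID1B marks canonical BAF, whereas ARID2, PBRM1, BRD7 and PHF10 mark PBAF. The form of mESCs, esBAF, is known for SMARCA4, SMARCC1 and ARID1A with little SMARCA2 or SMARCC2, and paralogs are exchanged as cells leave pluripotency. The comparison of days within each line asks which of these transcripts moved over differentiation, and the comparison of the lines asks whether they differed when Ctsl was knocked down.

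The 12 libraries hold 11171111 to 27155553 counted reads. Levels are given as normalized CPM, read counts divided by library totals that were scaled with TMM factors, which correct library totals for composition and were 0.835 to 0.858 at Day 0 and 1.03 to 1.11 on the later days. Scaling by library totals alone moved the median log2 fold change of all genes by 0.34 to 0.40 between Day 0 and Day 2 and by 0.33 to 0.37 between Day 0 and Day 4, so members whose direction or call depends on it are given with both values. The targeted gene Ctsl lay lower in every shCTSL library than in either shSC library of the same day, with log2 fold changes of −1.89 at Day 0 and −1.06 at Day 2 (adjusted p = 0.00246 and 0.0342) and −0.83 at Day 4 (adjusted p = 0.0896). With each library left out in turn, the Day 0 call held in 10 of 12 fits (−1.95 to −1.83), all but those without a shCTSL Day 0 library, and the Day 2 call held in 2 of 12 (−1.28 to −0.86), those without a shCTSL Day 2 library. The Day 2 call also ended with limma-voom (adjusted p = 0.428) and with the compared libraries alone (adjusted p = 0.708). The 2 shCTSL Day 2 libraries stood apart from each other, with an SD of their log2 ratio over genes of 0.604 against 0.178 to 0.269 in the other 5 groups. The median log2 deviation of genes with over 5000 bases of exon, minus that of genes with under 2000, was higher on each later day in shSC and lower in both shCTSL than in both shSC libraries at Day 4. In shSC it was −0.10 and −0.15 at Day 0, 0.20 and 0.18 at Day 2 and 0.45 and 0.35 at Day 4. In shCTSL it was −0.30 and −0.13 at Day 0, −0.82 and 0.21 at Day 2 and 0.14 and −0.09 at Day 4, lowest in replicate 1 of Day 2. All 10 members are on the long side, with 5010 to 12600 bases of exon. Offsets that take out this trend ended the Day 4 calls of Arid1b in both lines and gave calls at Day 4 to Arid1a in shSC (−0.90) and Smarcc1 in shCTSL (−0.62). The ribosomal RNA gene Rn45s took 0.217 and 0.293% of the reads at Day 0, 0.170 and 0.726% at Day 2 and 1.43 and 1.06% at Day 4 in shSC and 0.212 and 0.431%, 3.43 and 0.553% and 0.376 and 0.228% in shCTSL, highest in the same shCTSL Day 2 replicate 1, and its part in the results was not tested. With both shCTSL Day 2 libraries left out, the same members were called in each comparison of days that remained.

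Markers of cell types moved with the day in the same libraries. All 5 pluripotency markers (Pou5f1, Nanog, Sox2, Zfp42 and Esrrb) were called lower at Day 4 in both lines, and their summed level was 4428 to 4853 at Day 0 and 225 to 298 at Day 4, in normalized CPM over both lines. All 5 primitive endoderm markers were called higher (12.6 to 16.3 at Day 0 and 364 to 425 at Day 4). Of 3 neural progenitor markers, 2 were called higher in shSC and 3 in shCTSL (67.6 to 71.5 at Day 0 and 116 to 141 at Day 4), whereas of 4 neuronal markers 1 was called higher and 2 lower in each line (182 to 214 at Day 0 and 24.7 to 37.2 at Day 4). Of 4 fibroblast markers, 3 were called higher and 1 lower (6.53 to 10.8 at Day 0 and 53.4 to 64.4 at Day 4). Of 4 blood and endothelium markers 3 could be tested, with 2 called higher and 1 lower (62.5 to 88.9 at Day 0 and 126 to 169 at Day 4), and the embryonic globin Hbb-bh1 had 0 counts in each Day 0 library. The part of these markers' cells in the changes of the subunits was not tested, and in bulk RNA fewer cells of a type cannot be told apart from less RNA per cell.

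Over differentiation, with TMM scaling, the second paralog of each pair rose, and the paralog typical of esBAF did not. With library totals alone the Day 4 values of Smarca4 in both lines and Smarcc1 in shSC lay above 0, under 1.5-fold. From Day 0 to Day 4 Smarca2 rose 19.1-fold in shSC and 22.6-fold in shCTSL, Smarcc2 rose 4.01- and 3.45-fold, and Arid1b rose 1.73- and 1.72-fold. The Arid1b calls were the least firm, as they ended when any library compared was left out and with offsets for exonic length. Arid1a fell between Day 0 and Day 2 in both lines. Smarca4 and the 4 PBAF subunits were not called in any comparison of days. A call needed an adjusted p below 0.05 together with a change of 1.5-fold or more. By this rule 3 of the 10 members were called between Day 0 and Day 4 in shSC (3 higher and 0 lower), where 60.7% of all genes tested were (32.1% higher and 28.7% lower). In shCTSL 4 were called (3 higher and 1 lower), against 59.9% of all genes (32.3% and 27.6%). Between Day 0 and Day 2 it was 3 in shSC (2 higher and 1 lower), against 54.6% of all genes (29.3% and 25.3%), and 4 in shCTSL (2 higher and 2 lower), against 55.5% (30.9% and 24.6%). Between Day 2 and Day 4 the single call in each line was Smarca2, against 23.8% of all genes in shSC and 23.4% in shCTSL. Calls over days were thus common among genes at large, and the members' median log2 fold change from Day 0 to Day 4 was −0.02 in shSC and −0.08 in shCTSL, against 0.03 and 0.06 over all genes.

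**Figure D1:**
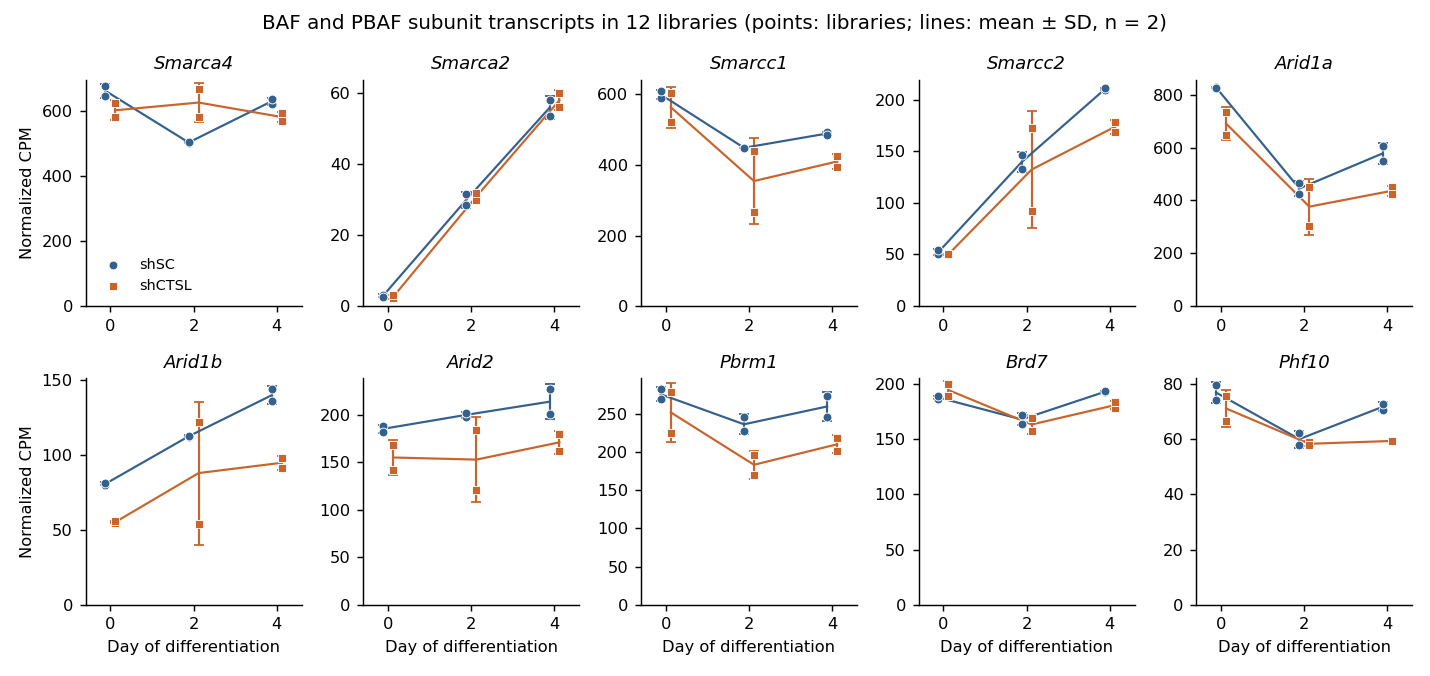
Normalized CPM (y axis, from 0, a scale per gene) of the 10 subunit genes by day of differentiation (x axis) in shSC (circles) and shCTSL (squares), with a point per library and lines through the means with SD bars of 2 libraries. Smarca2 and Smarcc2 are highest at Day 4, Arid1a is lowest at Day 2, and the shCTSL Day 2 libraries stand far apart for Smarcc1, Smarcc2, Arid1a, Arid1b and Arid2.

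The ATPases differed most. Smarca2 (chr19:26679650-26852811, plus strand, mm9), which encodes BRM, was nearly absent from mESCs, with 3.28 and 2.60 normalized CPM at Day 0 in shSC and 2.16 and 3.05 in shCTSL, from 29 to 43 counted reads a library. Here and below replicate 1 comes before replicate 2. In shSC it reached 28.4 and 31.5 at Day 2 and 53.6 and 58.1 at Day 4, and in shCTSL 29.8 and 31.8 at Day 2 and 56.0 and 60.0 at Day 4. Every library of a later day lay above every library of an earlier day, and on each day the libraries of the lines overlapped. Smarca2 rose by 3.35 (SE 0.17, adjusted p = 1.70e-07) on the log2 scale from Day 0 to Day 2 and by 0.90 (SE 0.14, adjusted p = 0.000973) from Day 2 to Day 4 in shSC. The same steps in shCTSL came to 3.59 with SE 0.18 (adjusted p = 1.59e-07) and to 0.91 with SE 0.14 (adjusted p = 0.00101). The whole change to Day 4 was 4.25 (SE 0.17, adjusted p = 2.46e-08) in shSC and 4.50 (SE 0.18, adjusted p = 2.73e-08) in shCTSL.

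Smarca4 (chr9:21420613-21508674, plus strand), which encodes the esBAF ATPase BRG1, was the most abundant member per kilobase of exon in every group. In shSC it had 646 and 677 at Day 0, 503 and 503 at Day 2 and 623 and 637 at Day 4, in normalized CPM. Both Day 2 libraries lay below the other 4, and the Day 4 libraries lay just below those of Day 0. The log2 fold change of Day 2 against Day 0 was −0.40 (SE 0.10, adjusted p = 0.00551) and that of Day 4 against Day 2 was 0.32 (SE 0.10, adjusted p = 0.0321), both under 1.5-fold. In shCTSL the levels were 580.1 and 624 at Day 0, 669 and 583 at Day 2 and 570.2 and 592 at Day 4, with Day 2 overlapping the other days and a log2 fold change against Day 0 of 0.06 (SE 0.10, adjusted p = 0.642). From Day 0 to Day 4 the log2 fold change was −0.07 in shSC (95% interval −0.29 to 0.15) and −0.05 in shCTSL (95% interval −0.27 to 0.17), intervals that leave out a 1.5-fold change in either direction. With library totals alone these values were 0.26 and 0.32, so their sign rests on the scaling.

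The 250 bases before the annotated start of each ATPase gene are shown so that the promoters of a pair that moved so differently can be compared. They come from RefSeq on GRCm38.p6, a later build than mm9, and are written 5′ to 3′ on the gene's strand, with GGGCGG and its reverse complement CCGCCC, the core of the GC box, in capitals. The window of Smarca2 is chr19:26604910-26605159 and that of Smarca4 is chr9:21615919-21616168, both on the plus strand.
Smarca2: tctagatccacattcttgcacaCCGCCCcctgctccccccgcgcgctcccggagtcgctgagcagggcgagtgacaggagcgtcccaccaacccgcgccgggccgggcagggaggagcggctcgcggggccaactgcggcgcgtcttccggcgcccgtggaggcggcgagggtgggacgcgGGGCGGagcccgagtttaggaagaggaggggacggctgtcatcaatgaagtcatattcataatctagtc
Smarca4: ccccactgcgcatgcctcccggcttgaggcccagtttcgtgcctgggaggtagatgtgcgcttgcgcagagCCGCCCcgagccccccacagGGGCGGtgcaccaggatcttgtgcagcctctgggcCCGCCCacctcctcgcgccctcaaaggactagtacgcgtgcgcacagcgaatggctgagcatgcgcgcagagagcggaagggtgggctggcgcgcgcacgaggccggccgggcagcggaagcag
The Smarca2 window holds 2 GC box cores and 28 CpG dinucleotides and the Smarca4 window holds 3 and 25.

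Of the scaffold genes, Smarcc2 (chr10:127896292-127927229, plus strand), which encodes BAF170, rose in both lines. In shSC it had 50.2 and 54.6 at Day 0, 146 and 133 at Day 2 and 209 and 211 at Day 4, in normalized CPM, without overlap between days. The shCTSL libraries had 50.1 and 50.5 at Day 0, 91.9 and 172 at Day 2 and 178 and 169 at Day 4, where the Day 2 libraries were far apart and one of them lay at the level of Day 4. Smarcc2 rose by 1.41 (SE 0.23, adjusted p = 0.000377) on the log2 scale from Day 0 to Day 2 and by 2.0 (SE 0.23, adjusted p = 2.87e-05) to Day 4 in shSC, and by 1.40 (SE 0.23, adjusted p = 0.000416) and 1.79 (SE 0.23, adjusted p = 6.69e-05) in shCTSL. From Day 2 to Day 4 the values were 0.59 with SE 0.22 (adjusted p = 0.0724) in shSC and 0.39 with SE 0.22 (adjusted p = 0.217) in shCTSL, neither of them called. The shSC value was called with limma-voom (0.59 at an adjusted p of 2.20e-05) and when shCTSL Day 2 replicate 2, which enters only the shared estimate of the spread, was left out (0.59 at an adjusted p of 3.62e-06). The shCTSL value was 0.91 without that library. The Day 2 group then rested on replicate 1 alone, so only the effect size is given.

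Smarcc1 (chr9:110034541-110142682, plus strand), which encodes BAF155, lay lower on the later days in normalized CPM. In shSC it had 590.2 and 608 at Day 0, 449 and 448 at Day 2 and 492 and 486 at Day 4, in normalized CPM. In shCTSL it had 522 and 605 at Day 0, 268 and 440.4 at Day 2 and 425 and 394 at Day 4. In both lines all later libraries lay below those of Day 0. At Day 4 the log2 fold change against Day 0 was −0.29 (SE 0.19, adjusted p = 0.186) in shSC and −0.46 (SE 0.19, adjusted p = 0.0511) in shCTSL, not called in either line. At Day 2 it was −0.42 (SE 0.19, adjusted p = 0.0745) in shSC, not called, whereas in shCTSL Smarcc1 fell by 0.67 (SE 0.19, adjusted p = 0.0103). Leaving out shCTSL Day 2 replicate 1 (−0.31) or shCTSL Day 0 replicate 2 (−0.56), both under 1.5-fold, ended this call. So did a fit of the 4 libraries compared (−0.66 at an adjusted p of 0.11) and library totals alone (−0.32 at an adjusted p of 0.187). With library totals alone the shSC Day 4 value of Smarcc1 lay above 0, so its direction rests on the scaling.

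The windows before the starts of the scaffold genes, shown for the same comparison, are chr10:128458986-128459235 for Smarcc2 and chr9:110131774-110132023 for Smarcc1 (RefSeq, GRCm38.p6, plus strand, GC box cores in capitals).
Smarcc2: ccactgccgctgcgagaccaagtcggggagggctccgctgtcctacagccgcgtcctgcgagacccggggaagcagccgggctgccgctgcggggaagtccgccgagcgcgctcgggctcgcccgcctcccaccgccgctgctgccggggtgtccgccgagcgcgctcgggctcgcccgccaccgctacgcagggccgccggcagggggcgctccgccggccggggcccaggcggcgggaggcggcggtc
Smarcc1: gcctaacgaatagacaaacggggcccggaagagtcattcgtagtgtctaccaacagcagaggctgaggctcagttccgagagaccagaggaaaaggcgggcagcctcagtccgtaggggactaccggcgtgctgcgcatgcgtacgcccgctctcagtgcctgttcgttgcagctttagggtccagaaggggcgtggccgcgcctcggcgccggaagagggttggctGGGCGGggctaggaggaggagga
The Smarcc2 window holds 0 GC box cores and 40 CpG dinucleotides and the Smarcc1 window holds 1 and 21. Windows were matched by symbol for 9 of the 10 members, all but Arid2, and Arid1a had 2 starts. GGGCGG occurred on either strand in 7 of the 9 genes and in 32.7% of the 32851 promoter windows of the same length. AGGTCA, the core of the sites that retinoic acid receptors read, occurred on either strand in 0 of the 9 (14.0% of all windows), and TATAAA in 0 of the 9 (12.4%). The members' windows held 18 to 51 CpG dinucleotides, where the median of all windows was 6 and 21.7% held at least 18.

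Arid1a (chr4:133234923-133312684, minus strand), which encodes the DNA-binding subunit of canonical BAF that is typical of esBAF, was lowest at Day 2. In shSC it had 828 and 826 at Day 0, 425 and 465 at Day 2 and 606 and 549.7 at Day 4, in normalized CPM, without overlap between days. In shCTSL the levels were 647 and 734 at Day 0, 302 and 451 at Day 2 and 450.2 and 424 at Day 4, with all 4 later libraries below Day 0 and Day 2 overlapping Day 4. Arid1a fell 1.86-fold between Day 0 and Day 2 in shSC and 1.83-fold in shCTSL. On the log2 scale this was −0.89 (SE 0.17, adjusted p = 0.000922) and −0.88 (SE 0.17, adjusted p = 0.00106). Against Day 0 the Day 4 value was −0.52 (SE 0.17, adjusted p = 0.0176) in shSC, under 1.5-fold and not called, and −0.66 (SE 0.17, adjusted p = 0.0052) in shCTSL, which was called. From Day 2 to Day 4 it was 0.38 (SE 0.17, adjusted p = 0.118) in shSC and 0.21 (SE 0.17, adjusted p = 0.362) in shCTSL, not called in either line.

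The Arid1a calls depended on the scaling. With library totals alone the values against Day 0 were −0.50 and −0.53 at Day 2 and −0.19 and −0.29 at Day 4, in shSC and shCTSL, still below 0 but none of them called. With offsets that take out a trend with exonic length, the Day 4 value was called in both lines (−0.90 at an adjusted p of 1.28e-06 in shSC and −0.92 at an adjusted p of 1.11e-06 in shCTSL). Single libraries that moved a value across the 1.5-fold line were shCTSL Day 2 replicate 1 for shCTSL Day 2 (−0.57 without it), shCTSL Day 0 replicate 2 for shCTSL Day 4 (−0.57) and shSC Day 4 replicate 1 for shSC Day 4 (−0.59).

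Arid1b (chr17:4994332-5347656, plus strand), whose product takes the place of ARID1A in other BAF complexes, had 80.0 and 81.5 at Day 0, 112 and 113 at Day 2 and 144 and 136 at Day 4 in shSC, in normalized CPM. The days did not overlap. The shCTSL libraries had 54.6 and 55.9 at Day 0, 54.2 and 122 at Day 2 and 98.2 and 91.4 at Day 4, so that one Day 2 library lay at the Day 0 level and the other above Day 4. Arid1b rose by 0.79 (SE 0.27, adjusted p = 0.0255) on the log2 scale from Day 0 to Day 4 in shSC and by 0.78 (SE 0.28, adjusted p = 0.0295) in shCTSL. The Day 2 values against Day 0, 0.48 (SE 0.27, adjusted p = 0.152) in shSC and 0.67 (SE 0.28, adjusted p = 0.0551) in shCTSL, were not called.

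The Day 4 calls of Arid1b ended when any of the 4 libraries compared was left out (adjusted p = 0.0653 to 0.0992 in shSC and 0.0678 to 0.114 in shCTSL), with values of 0.75 to 0.84 in shSC and 0.72 to 0.83 in shCTSL over all libraries left out in turn. Without both shCTSL Day 2 libraries they held, at 0.81 at an adjusted p of 1.07e-08 in shSC and 0.80 at an adjusted p of 2.90e-08 in shCTSL, and with offsets for exonic length they ended under 1.5-fold (0.40 and 0.51). The Day 2 value in shCTSL was 1.18 without replicate 1 of that group and −0.03 without replicate 2. In such a fit the lone library is assumed to vary like the other groups.

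No PBAF subunit was called between any 2 days in either line. Arid2 (chr15:96117953-96235894, plus strand), which encodes the DNA-binding subunit that defines PBAF, had 188 and 182 at Day 0, 198 and 202 at Day 2 and 227 and 201 at Day 4 in shSC, in normalized CPM. In shCTSL it had 142 and 168 at Day 0, 121 and 184 at Day 2 and 179.5 and 162 at Day 4, with Day 2 overlapping both other days. At Day 4 the log2 fold change against Day 0 was 0.21 (SE 0.18, adjusted p = 0.312) in shSC and 0.14 (SE 0.18, adjusted p = 0.492) in shCTSL. With offsets for exonic length both values lay below 0 (−0.14 and −0.10), so no direction is given.

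Pbrm1 (chr14:31832324-31934778, plus strand), which encodes the polybromo protein that reads acetylated histones, had 282 and 269 at Day 0, 227 and 245 at Day 2 and 273 and 246 at Day 4 in shSC, in normalized CPM. In shCTSL the levels were 225 and 279 at Day 0, 170.3 and 196 at Day 2 and 218 and 201 at Day 4, with the Day 2 and Day 4 libraries below those of Day 0. The log2 fold change at Day 4 against Day 0 was −0.09 (SE 0.13, adjusted p = 0.568) in shSC and −0.26 (SE 0.13, adjusted p = 0.0948) in shCTSL. At Day 2 it was −0.46 (SE 0.13, adjusted p = 0.01) in shCTSL, under 1.5-fold. Without shCTSL Day 0 replicate 1, which leaves 1 library in that group, the value was −0.60, past 1.5-fold.

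Brd7 (chr8:90854938-90886093, minus strand), which encodes a bromodomain subunit of PBAF, had the smallest ratio of the highest to the lowest library among the 10 members (1.27). In shSC it had 186 and 189 at Day 0, 164 and 172 at Day 2 and 192 and 193 at Day 4, in normalized CPM. The shCTSL libraries had 189 and 200.03 at Day 0, 169 and 157 at Day 2 and 178 and 183 at Day 4. Both lines were lowest at Day 2. The log2 fold change at Day 4 was 0.04 in shSC (95% interval −0.16 to 0.24) and −0.11 in shCTSL (95% interval −0.31 to 0.10), intervals that leave out a 1.5-fold change. The shSC value lay below 0 with offsets for exonic length (−0.10).

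Phf10 (chr17:15081999-15129820, minus strand), which encodes a subunit of PBAF with plant homeodomain fingers, had 74.0 and 79.6 at Day 0, 57.8 and 62.2 at Day 2 and 70.5 and 72.8 at Day 4 in shSC, in normalized CPM. In shCTSL it had 66.4 and 75.7 at Day 0, 58.9 and 57.7 at Day 2 and 59.3 and 59.3 at Day 4. The Day 2 libraries lay below those of Day 0 in both lines, and the Day 4 libraries did so too. Values with an adjusted p under 0.05 were −0.36 (SE 0.10, adjusted p = 0.012) at Day 2 in shSC, −0.29 (SE 0.10, adjusted p = 0.0347) at Day 2 in shCTSL and −0.26 (SE 0.10, adjusted p = 0.0479) at Day 4 in shCTSL, all under 1.5-fold. With library totals alone all of these values lay above 0, so their direction rests on the scaling. Of the exon bases of Phf10 9.68% overlap 1600012H06Rik on the opposite strand, a gene that is also in the count table, and reads of both cannot be told apart there if the counting ignored the strand. With library totals alone the shSC Day 4 values of Pbrm1, Brd7 and Phf10 were 0.24, 0.37 and 0.23, all above 0 and under 1.5-fold. Brd7 at Day 2 in both lines, Pbrm1 at Day 2 in shSC, and both genes at Day 4 in shCTSL also lay above 0 against Day 0 with that scaling.

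**Figure D2:**
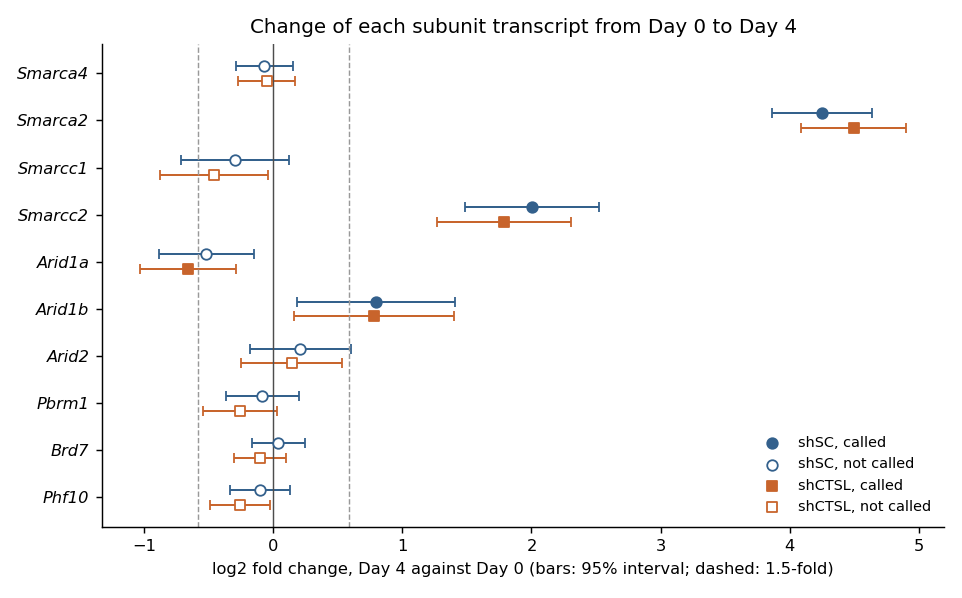
Log2 fold change of each subunit gene from Day 0 to Day 4 (x axis) in shSC (circles) and shCTSL (squares), with 95% intervals as bars, filled symbols for called genes and dashed lines at 1.5-fold. Smarca2, Smarcc2 and Arid1b are called to the right in both lines, Arid1a lies to the left with only the shCTSL value called, and none of the other 6 genes is called.

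A ratio of paralogs within a library does not depend on the scaling between libraries. The balance of each pair of transcripts was therefore also given as the share that one paralog took of its pair, per kilobase of exon. These shares do not measure the subunits in the complexes. Smarca2 made up 0.509 and 0.387% at Day 0, 5.39 and 5.95% at Day 2 and 7.99 and 8.43% at Day 4 of the Smarca2 and Smarca4 signal in shSC. In shCTSL it made up 0.375 and 0.492% at Day 0, 4.31 and 5.23% at Day 2 and 9.02 and 9.27% at Day 4. The days did not overlap in either line. The ratio was 20.1-fold higher at Day 4 than at Day 0 in shSC and 23.3-fold higher in shCTSL, yet Smarca2 remained the minor paralog. The shCTSL share was the lower one at Day 2 and the higher one at Day 4, without overlap.

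Smarcc2 made up 10.1 and 10.6% at Day 0, 30.1 and 28.1% at Day 2 and 36.0 and 36.4% at Day 4 of the Smarcc2 and Smarcc1 signal in shSC. In shCTSL it made up 11.3 and 9.94% at Day 0, 31.2 and 34.1% at Day 2 and 35.7 and 36.1% at Day 4. The ratio was 4.92-fold higher at Day 4 in shSC and 4.74-fold higher in shCTSL. Within the pair the shCTSL Day 2 libraries lay close together, although the level of either gene differed widely between them, and at Day 4 the lines overlapped.

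Arid1b made up 8.08 and 8.25% at Day 0, 19.4 and 18.1% at Day 2 and 17.8 and 18.4% at Day 4 of the Arid1b and Arid1a signal in shSC, so that Day 2 and Day 4 overlapped. In shCTSL it made up 7.14 and 6.49% at Day 0, 14.0 and 19.7% at Day 2 and 16.6 and 16.4% at Day 4, again with overlap between the later days. The ratio was 2.48-fold higher at Day 4 than at Day 0 in shSC and 2.71-fold higher in shCTSL. The shCTSL libraries lay below the shSC libraries at Day 0 and at Day 4.

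Arid2 was set against Arid1a to compare a transcript of PBAF with one of canonical BAF. This ratio leaves out Arid1b and does not measure the complexes. It made up 22.0 and 21.5% at Day 0, 36.6 and 35.0% at Day 2 and 31.7 and 31.2% at Day 4 of their signal in shSC, highest at Day 2. In shCTSL it made up 21.4 and 22.1% at Day 0, 33.3 and 33.7% at Day 2 and 33.1 and 32.2% at Day 4, with the later days within a narrow range. The ratio was 1.65- and 1.75-fold higher at Day 4 than at Day 0. Arid2 itself was not called in either line, and the Arid1a libraries of Day 4 lay below those of Day 0 in both. In all 4 pairs and both lines every Day 2 and Day 4 library lay above every Day 0 library. With 2 libraries against 2 the smallest two-sided p of an exact permutation test is 0.333, so these ratios are given without a test.

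**Figure D3:**
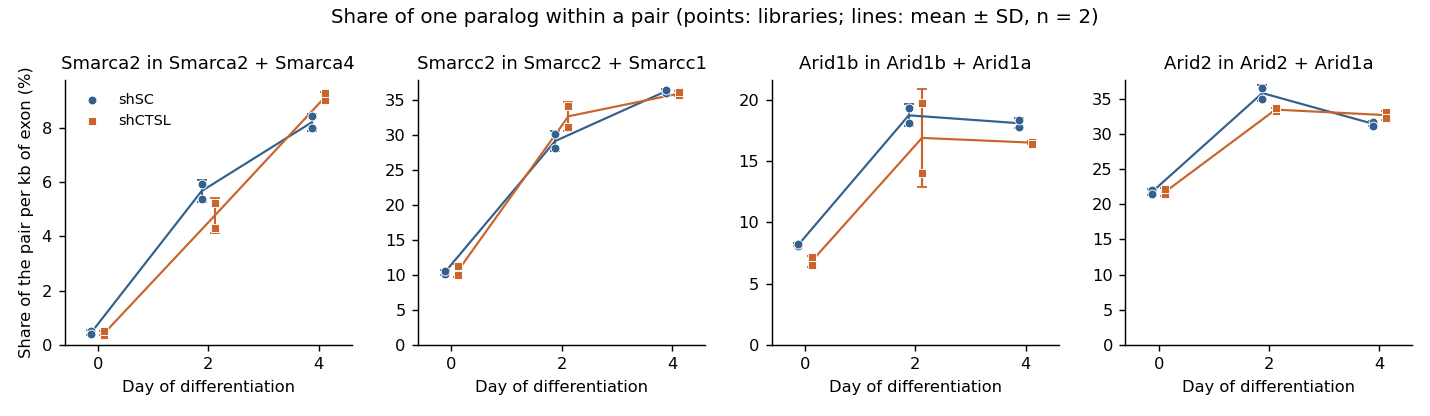
Share (y axis, percent of the pair per kilobase of exon, from 0) taken by Smarca2, Smarcc2, Arid1b and Arid2 within 4 pairs of subunit genes by day (x axis), with a point per library, circles for shSC, squares for shCTSL and lines through the means with SD bars of 2 libraries. The Smarca2 share is highest at Day 4, the Smarcc2 share has most of its Day 4 level at Day 2, and all 4 shares are lowest at Day 0.

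The order of the levels changed with the days. At Day 0 in shSC Smarca4 led with 102 ± 3.34 normalized CPM per kb of exon (mean ± SD, n = 2), followed by Smarcc1 (90.2 ± 1.92), Arid1a (72.1 ± 0.128), Brd7 (35.7 ± 0.324), Pbrm1 (31.1 ± 1.01), Arid2 (20.0 ± 0.458), Phf10 (15.3 ± 0.788), Smarcc2 (10.4 ± 0.630), Arid1b (6.41 ± 0.0875) and Smarca2 (0.458 ± 0.0745). No neighbours in this order overlapped. At Day 2 Smarcc2 had moved from rank 8 to rank 5 (27.7 ± 1.94), overlapping Pbrm1 (26.7 ± 1.48), and at Day 4 to rank 4 (41.8 ± 0.211), above Brd7 (36.7 ± 0.0850). Smarca4, Smarcc1 and Arid1a kept the first 3 ranks at Day 4, with 97.3 ± 1.58, 73.6 ± 0.650 and 50.3 ± 3.46. Smarca2 (8.71 ± 0.502) was still last, below Arid1b (11.1 ± 0.471). In shCTSL the order at Day 0 was the same, with Smarca4 and Smarcc1 overlapping. At Day 4 Smarca2 (9.04 ± 0.441) stood above Arid1b (7.52 ± 0.381) in shCTSL, without overlap, and Smarcc2 (34.5 ± 1.35) overlapped Brd7 (34.4 ± 0.676).

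Between the lines 0 of the 10 members were called on any day or in the mean over the days at 1.5-fold or more, with edgeR, DESeq2 or limma-voom on all libraries. Without the fold threshold, an adjusted p under 0.05 was reached by 0 members in edgeR. In DESeq2 it was reached by Pbrm1 in the mean (adjusted p = 0.0487). In limma-voom it was reached by Arid1a and Arid1b at Day 0 (adjusted p = 0.0487 and 0.00346), by 0 members at Day 2, by Arid1a, Arid1b, Arid2 and Pbrm1 at Day 4 (adjusted p = 0.0112, 0.00358, 0.0345 and 0.0477) and by Arid1a, Arid1b and Arid2 in the mean (adjusted p = 0.0421, 0.0106 and 0.0440). At an unadjusted p under 0.05 in edgeR there were 0 at Day 0, 2 at Day 2, 3 at Day 4 and 5 in the mean. Of the 15532 genes tested, 1127, 3014, 1897 and 3510 reached the same threshold. With the fold threshold edgeR called 0.0386% of all genes at Day 0, 0.0644% at Day 2, 0.0129% at Day 4 and 0.27% in the mean. For the DESeq2 and limma-voom counts without the fold threshold the share of all genes is not given. Those counts therefore have no background beside them. The members' log2 fold changes lay below 0 for 9 of 10 at Day 0, 8 at Day 2 and 9 at Day 4, with medians of −0.13, −0.16 and −0.27, against −0.02, 0.02 and −0.00 over all genes. At Day 4 the shCTSL libraries lay wholly below the shSC libraries for 9 of the 10 members, all but Smarca2, and for 31.5% of all genes. With offsets for exonic length the members' medians were −0.07, 0.00 and −0.11, with 9, 5 and 8 members below 0.

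Arid1b had the lowest value in the mean over the days, −0.49 (SE 0.16, adjusted p = 0.169). Its shCTSL libraries lay below its shSC libraries at Day 0 and at Day 4. By day the values were −0.55, −0.35 and −0.56 at Day 0, Day 2 and Day 4 (adjusted p = 0.736, 0.443 and 0.438). At Day 4 they were −0.40 for Arid1a, −0.32 for Arid2, −0.31 for Pbrm1 and −0.27 for Phf10 (adjusted p = 0.387, 0.459, 0.389 and 0.363). In the mean over the days Pbrm1 had the lowest adjusted p of the members in edgeR, −0.27 (SE 0.07, adjusted p = 0.138). With offsets for exonic length the mean over the days was −0.07 for Pbrm1 and −0.26 for Arid1b (adjusted p = 0.501 and 0.112). Over all alternatives the adjusted p ran from 0.000316 to 0.501 for Pbrm1 and from 4.87e-08 to 0.391 for Arid1b, lowest in both without shCTSL Day 2 replicate 2. The ATPases lay near 0, with −0.03 for Smarca2 (95% interval −0.24 to 0.18) and 0.02 for Smarca4 (95% interval −0.11 to 0.15).

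These values depended on which shCTSL Day 2 library was kept. Without replicate 2 the group rested on replicate 1 alone, the library with the lowest trend with exonic length (−0.82) and the most Rn45s (3.43%). All members have over 5000 bases of exon. The Day 2 values were then −1.06 for Arid1b, −0.75 for Smarcc1, −0.72 for Arid2 and −0.61 for Smarcc2, and Arid1b was −0.72 in the mean over the days. Without replicate 1 instead, the Day 2 value of Arid1b was 0.12. Only effect sizes are given, as each of these fits leaves 1 library in that group.

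**Figure D4:**
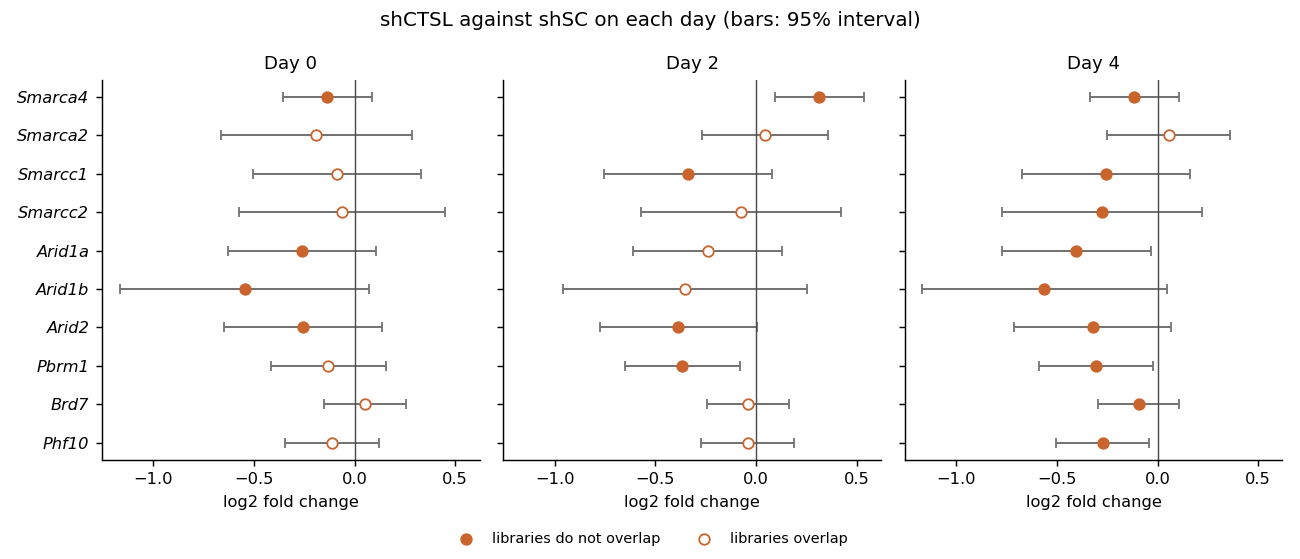
Log2 fold change of shCTSL against shSC (x axis) for the 10 subunit genes at Day 0, Day 2 and Day 4, with 95% intervals as bars and filled points where the libraries of the lines did not overlap. At Day 4, 9 of 10 points are filled and left of 0, and none of the values is called.

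The difference between the lines in a change between days was called for 0 members, with edgeR, DESeq2 or limma-voom, where 0% of all genes were called for Day 2 against Day 0, 0% for Day 4 against Day 2 and 0.00644% for Day 4 against Day 0. Members with an unadjusted p under 0.05 in edgeR numbered 1, 1 and 0 in these contrasts, against 1716, 753 and 1042 of the 15532 genes tested. For Day 4 against Day 0 the differences ran from −0.21 for Smarcc2 (95% interval −0.93 to 0.50) to 0.24 for Smarca2 (95% interval −0.32 to 0.81), so a difference of 1.5-fold between the lines in the rise of either gene is within the error. For Day 2 against Day 0 the value of Smarca4 was 0.45 (SE 0.14, adjusted p = 0.39). Leaving out a shCTSL Day 2 library, so that the group rested on the other, moved different genes past 1.5-fold. These included Smarcc1 without replicate 2 (−0.65 for Day 2 against Day 0). They also included Arid1b without replicate 1 (0.66 for Day 2 against Day 0 and −0.68 for Day 4 against Day 2).

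The other SWI/SNF subunits, from a list of 20 genes in the table, give the setting. All but Actl6b, the actin-like subunit of neuronal BAF, could be tested, and Actl6b had 0 to 6 counts in every library. From Day 0 to Day 2, 4 of the 19 were called higher and 8 lower in shSC, and 2 and 7 in shCTSL, where 29.3% and 25.3% of all genes were called higher and lower in shSC and 30.9% and 24.6% in shCTSL. From Day 2 to Day 4, 6 and 5 were called higher and 0 lower in shSC and shCTSL, against 11.4% and 11% of all genes called higher and 12.4% lower in each line. From Day 0 to Day 4, 7 were called higher and 6 lower in each line, the same 13 genes in both, with a median of −0.02 in shSC and 0.10 in shCTSL. Of all genes 60.7% were called in shSC and 59.9% in shCTSL, 32.1% and 32.3% higher and 28.7% and 27.6% lower, so the number of subunits called is near the background. With library totals alone it was 7 higher and 5 lower in shSC and 8 and 5 in shCTSL, a setting to which the shares of all genes above do not apply.

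Among those called higher at Day 4 were Ss18l1 and Dpf3, known from neurons or other differentiated cells. Dpf1, also known from neurons, was called lower, and Actl6b had too few counts to be tested. Ss18l1 (CREST), the neuronal counterpart of Ss18, had 8.23 and 9.73 at Day 0, 13.6 and 15.5 at Day 2 and 22.4 and 19.6 at Day 4 in shSC, in normalized CPM, with log2 fold changes to Day 4 of 1.22 in shSC and 0.97 in shCTSL (adjusted p = 0.000643 and 0.00363). Dpf3, a BAF45 subunit known from heart, muscle and neurons, had 0 counts in both shSC Day 0 libraries and 4.29 and 3.05 normalized CPM at Day 4, at least 37.1-fold higher against a floor of 3 counts over the Day 0 group. In shCTSL Dpf3 had 0.149 and 0.211 at Day 0 and 2.98 and 3.10 at Day 4, a change of 4.07 (SE 0.41, adjusted p = 2.06e-05) on the log2 scale. Bcl11a, a zinc finger subunit, had 6.33 and 5.45 at Day 0, 3.35 and 3.37 at Day 2 and 32.0 and 30.5 at Day 4 in shSC and 11.3 and 6.85 at Day 0, 3.94 and 4.0 at Day 2 and 27.7 and 24.9 at Day 4 in shCTSL, so that it was lowest at Day 2 and highest at Day 4, with 2.41 in shSC and 1.51 in shCTSL (adjusted p = 2.96e-06 and 7.41e-05) from Day 0 to Day 4. Its paralog Bcl11b stayed at a low level (3.89 and 4.37 in shSC and 5.30 and 5.90 in shCTSL at Day 4), with log2 fold changes of 0.84 in shSC and 0.98 in shCTSL (adjusted p = 0.0152 and 0.00622). Bcl7a (1.46 and 1.48, adjusted p = 6.08e-05 and 6.08e-05), the core subunit Smarce1 (BAF57; 1.14 and 1.09, adjusted p = 1.58e-05 and 2.26e-05) and Gltscr1 (1.2 and 1.02, adjusted p = 0.00705 and 0.0182), which marks the non-canonical complex, were called higher as well, with shSC given before shCTSL.

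Called lower at Day 4 were Actl6a (BAF53A; −1.41 and −1.21, adjusted p = 9.21e-07 and 2.73e-06), which neurons replace with Actl6b, Ss18 (−0.97 and −1.12, adjusted p = 6.37e-06 and 2.48e-06), Smarcd1 (BAF60A; −1.19 and −1.10, adjusted p = 3.43e-06 and 6.30e-06) and the core subunit Smarcb1 (SNF5; −0.87 and −0.71, adjusted p = 0.000248 and 0.000981). Dpf1, a BAF45 subunit known from neurons, had 40.9 and 40.2 at Day 0, 5.28 and 5.25 at Day 2 and 9.59 and 10.2 at Day 4 in shSC and 39.6 and 37.4 at Day 0, 4.86 and 7.32 at Day 2 and 8.82 and 9.64 at Day 4 in shCTSL, in normalized CPM. It was lowest at Day 2, and its log2 fold changes to Day 4 were −2.04 in shSC and −2.06 in shCTSL (adjusted p = 2.48e-06 and 2.48e-06). Gltscr1l, the paralog of Gltscr1, had 246 and 238 at Day 0, 38.1 and 35.6 at Day 2 and 31.7 and 31.8 at Day 4 in shSC and 175 and 194 at Day 0, 13.0 and 32.5 at Day 2 and 24.5 and 21.1 at Day 4 in shCTSL, and reached its low level by Day 2. Its values to Day 4, −2.93 in shSC and −3.02 in shCTSL (adjusted p = 1.77e-05 and 1.60e-05), were the lowest of the list. The pairs Gltscr1 and Gltscr1l, and Ss18l1 and Ss18, were thus called in opposite directions in both lines.

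Some of these calls rested on the scaling or on 1 library. Smarcb1 was under 1.5-fold with library totals alone (−0.54 in shSC and −0.33 in shCTSL). The shSC call of Bcl11b ended with offsets for exonic length (0.53) and without shSC Day 0 replicate 2 (0.77) or shSC Day 4 replicate 2 (0.76). The shCTSL call of Gltscr1 ended without shCTSL Day 0 replicate 1 (1.02), shCTSL Day 0 replicate 2 (1.02) or shCTSL Day 4 replicate 1 (0.93). Between the lines edgeR and DESeq2 called 0 of the 19 at 1.5-fold or more on any day or in the mean over the days. An unadjusted p under 0.05 in edgeR was reached by 3 at Day 0, 7 at Day 2, 2 at Day 4 and 8 in the mean. Of the 15532 genes tested it was reached by 1127, 3014, 1897 and 3510. With limma-voom Dpf3 was called higher in shCTSL at Day 0 and Gltscr1 lower at Day 4.

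**Figure D5:**
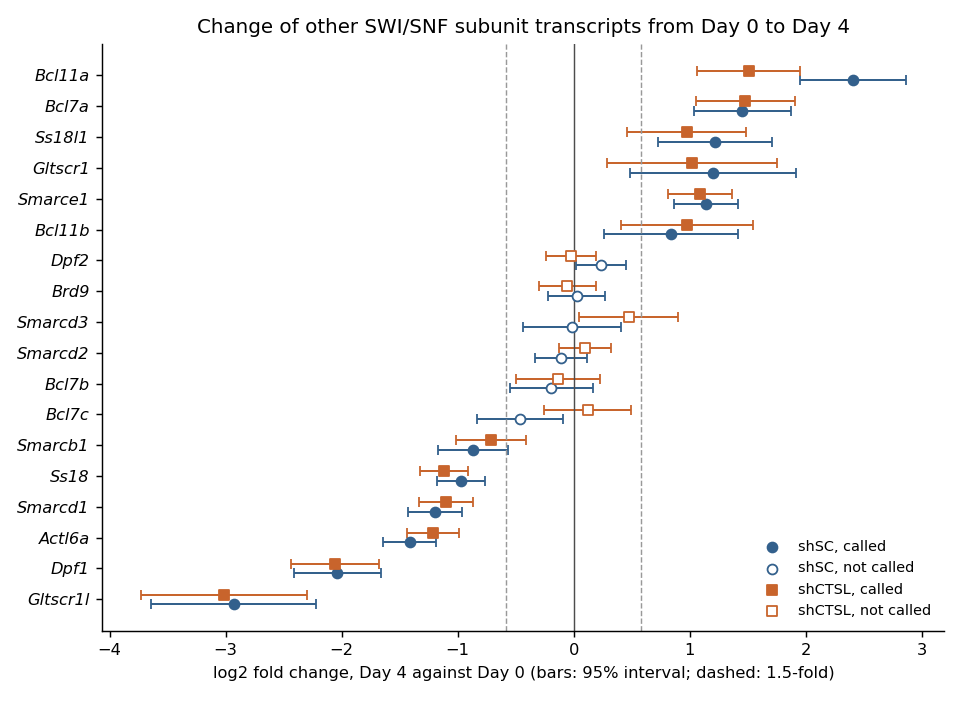
Log2 fold change from Day 0 to Day 4 (x axis) of 18 other SWI/SNF subunit genes in shSC (circles) and shCTSL (squares), with 95% intervals as bars, filled symbols for called genes and dashed lines at 1.5-fold. Dpf3 is left out because it had 0 counts in shSC at Day 0. In both lines 6 of these genes are called above 1.5-fold and 6 below it, with Gltscr1l the lowest.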

How the data were processed

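RNA-seq read counts of 12 libraries were analysed. Per the labels and the study's methods, the authors aligned poly(A) reads to mm9 with STAR 2.3.0e, filtered alignments with SAMtools 0.1.19 and deposited the count of reads per RefSeq gene from featureCounts 1.6.2, unnormalized whole numbers for 24495 genes. The sources used here do not give the strand setting of the counting. All libraries were fitted together with edgeR 4.0.16 (quasi-likelihood test, 6 group means, TMM, R 4.3.3), on the 15532 genes that passed a minimum count of 10, with Benjamini-Hochberg adjustment over all of them and 6 residual degrees of freedom. DESeq2 1.42.0, limma-voom (limma 3.58.1), RLE factors, other filters and fold thresholds, fewer libraries, offsets for exonic length, a replicate block and, added after the data were seen, library totals without TMM were alternatives. Intervals cover the spread between libraries.

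The genes named were the 10 members, the other SWI/SNF subunits called at Day 4 in either line, the 2 highest and 2 lowest called ATPases of other remodelers, and the 3 genes nearest to the highest and the lowest member in pattern. The members and lists were chosen with earlier results of these data known. Positions are from GENCODE M1 (mm9) and promoters from RefSeq (GRCm38.p6). Among all genes, 20561 matched the annotation by symbol and 1778 by another name. On counts simulated for shSC Day 4 against Day 0 over 15532 genes, 1 of 50 genes changed 1.5-fold, 30 of 50 changed 2-fold, 45 of 50 changed 4-fold and 47 of 50 changed 8-fold were called, and 6 of 15332 unchanged ones. Figures were drawn with matplotlib 3.10.9.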

Additional observations from a re-analysis of the deposited data

How the results depend on the processing

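Of the members' counts of calls over all comparisons, 288 recomputed values stayed within 1.5 times and 17 did not, and of the single values 2135 kept direction and side of the threshold, 27 gained a call, 78 lost it and 30 turned direction. Without the fold threshold 5 members were called in shSC and 7 in shCTSL between Day 0 and Day 2, and 2 in shSC between Day 2 and Day 4. At an unadjusted p under 0.05 in edgeR the members numbered 6, 8 and 5 in these comparisons. Of all 15532 genes 10408, 10497 and 6210 reached it. For the other rules and for libraries left out, the share of all genes is not given. Those counts are therefore not read as a result about the members. At a log2 fold change of at least 1.5 it was 1 in shSC and 1 in shCTSL between Day 0 and Day 2, 0 and 0 between Day 2 and Day 4, and 2 in shCTSL between Day 0 and Day 4. With limma-voom 2 were called in shSC between Day 2 and Day 4. Leaving out each library in turn gave 1 to 2 members called in shSC and 1 to 4 in shCTSL between Day 2 and Day 4, 2 to 4 in shCTSL between Day 0 and Day 4, 0 to 4 between the lines at Day 2, 0 to 1 in their mean over the days, and 0 to 1 for the difference between the lines in the changes from Day 0 to Day 2 and from Day 2 to Day 4.

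Values that turned direction were all under 1.5-fold in the fit of all libraries, except Arid1b in shCTSL between Day 0 and Day 2. With library totals alone they were, against Day 0, in shSC at Day 2 0.17 for Pbrm1, 0.23 for Brd7 and 0.038 for Phf10, in shSC at Day 4 0.26 for Smarca4, 0.033 for Smarcc1, 0.24 for Pbrm1 and 0.23 for Phf10, in shCTSL at Day 2 0.33 for Arid2, 0.087 for Brd7 and 0.055 for Phf10, and in shCTSL at Day 4 0.32 for Smarca4, 0.11 for Pbrm1, 0.27 for Brd7 and 0.12 for Phf10. By construction this scaling moved all genes of a comparison together. The split of calls over all genes moved with it, from 4982 higher and 4453 lower to 6241 and 3143 in shSC between Day 0 and Day 4, and from 5011 and 4285 to 6531 and 2767 in shCTSL. Between Day 0 and Day 2 it moved from 4549 and 3928 to 6238 and 2211 in shSC and from 4801 and 3826 to 6236 and 2376 in shCTSL. With offsets for exonic length Arid2 was −0.10 in shSC at Day 2, −0.14 in shSC at Day 4 and −0.10 in shCTSL at Day 4 against Day 0, Brd7 was −0.10 in shSC at Day 4, and Smarca2 was 0.085 in shCTSL against shSC over the days. Without a filter Arid2 was 0.016 in shCTSL at Day 2 against Day 0 and Smarca4 was −0.0036 between the lines over the days. The cause of these turns was not tested.

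Leaving out each library in turn, values that turned direction ranged from −0.0030 to 0.16 for Smarca4, −0.026 to 1.18 for Arid1b and −0.35 to 0.30 for Arid2 in shCTSL between Day 0 and Day 2, and between the lines from −0.11 to 0.051 for Smarca2 and −0.0057 to 0.050 for Smarca4 in the mean over the days and from −1.06 to 0.12 for Arid1b at Day 2. The extremes between Day 0 and Day 2 came without one or the other shCTSL Day 2 library.

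Replicate numbers did not pair the libraries: correlations of their deviations ran from −0.33 to 0.13. With the replicate number as a block the count of members called did not change in any comparison, for example 3 in shSC and 4 in shCTSL between Day 0 and Day 4, and Ctsl lost its call at Day 2 (adjusted p = 0.0631).

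In the simulation few genes changed by 1.5-fold were called, a size at which the fold threshold alone leaves out many of them whatever the number of libraries, so a member without a call may still differ. The 29 to 43 reads of Smarca2 at Day 0 limit the precision of its fold change, and intervals cover only the spread between libraries.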

Other observations

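ATPases of other remodeler families, from a list of 17 genes that were all tested, included 2 called higher and 8 called lower in shSC from Day 0 to Day 4 and 2 and 9 in shCTSL, of which 2 and 8 in both lines. Of all genes 60.7% were called in shSC and 59.9% in shCTSL, with 32.1% and 32.3% higher and 28.7% and 27.6% lower, so the total of 10 and 11 calls among 17 is near the background. Their median log2 fold change was −0.48 in shSC and −0.59 in shCTSL. With library totals alone the split was 4 and 4 in shSC and 3 and 4 in shCTSL, and with offsets for exonic length it was 1 and 10 in shSC and 1 and 11 in shCTSL. The shares of all genes above do not apply to these settings, so these splits are not read as a result about the list. Chd3, an ATPase of the NuRD complex, had 28.2 and 29.0 at Day 0, 116 and 109 at Day 2 and 749 and 624 at Day 4 in shSC and 28.4 and 24.1 at Day 0, 102 and 136 at Day 2 and 491 and 454 at Day 4 in shCTSL, in normalized CPM, without overlap between days. Its log2 fold change to Day 4 was 4.58 (SE 0.18, adjusted p = 1.65e-08) in shSC and 4.17 (SE 0.17, adjusted p = 3.04e-08) in shCTSL, the highest of the list. Smarca1 (SNF2L), an ATPase of the ISWI family, was called higher too, at 0.64 (SE 0.11, adjusted p = 0.000373) and 0.66 (SE 0.11, adjusted p = 0.000339), but was under 1.5-fold with offsets for exonic length (0.44 and 0.52) and, in shSC, without shSC Day 4 replicate 1 (0.55).

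Hells (LSH), a remodeler that supports DNA methylation, had 650.1 and 625 at Day 0, 223 and 237 at Day 2 and 172 and 166 at Day 4 in shSC and 698 and 757 at Day 0, 169 and 199 at Day 2 and 154 and 150.4 at Day 4 in shCTSL, in normalized CPM. It was the lowest of the list in both lines, at −1.91 (SE 0.11, adjusted p = 1.84e-07) and −2.26 (SE 0.11, adjusted p = 7.86e-08). Next was Chd5 in shSC, at −1.68 (SE 0.17, adjusted p = 1.09e-05), with −1.09 (SE 0.17, adjusted p = 0.000277) in shCTSL, and in shCTSL Smarcad1, at −1.71 (SE 0.17, adjusted p = 1.01e-05), with −1.46 (SE 0.17, adjusted p = 2.92e-05) in shSC.

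Over the 12 libraries, the genes whose log2 levels, centred on their mean, lay nearest to those of Smarca2 were Angptl2, Zbtb4 and Mex3b, at root mean square distances of 0.153, 0.169 and 0.173. Those nearest to Arid1a, the member with the lowest change to Day 4 in shSC, were Gnptab, Dclre1c and Srrm1, at 0.0656, 0.0793 and 0.0816. The libraries are shared by all these genes, and nothing is implied about common control.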
